A study of Ixodes ricinus with 9 samples.

Results

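The genes described here are the peptidase family C13 genes of the tick midgut, the family of the legumains. They were chosen as all genes of the count table whose annotation carries the Pfam domain PF01650, which gave 10 of 28510 genes. By best Swiss-Prot match, 8 of them were legumains, 1 was a vacuolar-processing enzyme, which is the plant form of legumain, and 1 was a GPI-anchor transamidase. Legumain, also called asparaginyl endopeptidase, is a lysosomal cysteine protease that cuts proteins after asparagine. Ticks digest blood inside midgut cells, in acidic vesicles, where legumain works on haemoglobin beside cathepsins of the aspartic and papain families and can also activate the precursors of other cathepsins. The GPI-anchor transamidase shares the C13 fold but sits in the endoplasmic reticulum and attaches glycolipid anchors to newly made proteins.

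Unfed adult females of a laboratory colony of Ixodes ricinus, the castor bean tick, received double-stranded RNA (dsRNA) that silences either antigen p23 or metalloprotease, or dsRNA of GFP, a sequence foreign to the tick that served as the negative control. All 3 groups were injected and then fed in vitro on bovine blood, and midguts were taken on feeding day 7. Each group had 9 ticks in 3 pools of 3, each pool gave 1 library, and ages were not given. By RT-qPCR the study reports a successful antigen p23 knockdown in the midgut, and it calls the metalloprotease knockdown there partial. No source used here ties antigen p23 or metalloprotease to a listed gene, so the silencing was not checked in the counts of these libraries.

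Library totals ran from 3303358 to 9430607 counts, the highest in metalloprotease replicate 3. Antigen p23 replicates 1 and 2 stood apart, with 7291 and 6294 genes detected, against 9136 to 10988 in the other 7 libraries. Genes taken as markers of digestive midgut cells were present in every library. The 2 ferritins, which store iron, summed to 4258 to 6094 CPM (counts scaled to a common library size) in antigen p23, 3218 to 5061 CPM in metalloprotease and 2768 to 4337 CPM in GFP control. In the same groups the papain family cathepsins summed to 1495 to 2286, 899 to 2330 and 812 to 1678 CPM. The aspartic peptidases were lower, at 132 to 156, 80.8 to 103 and 77.6 to 192 CPM. Of 6 lipocalin genes, taken as salivary gland markers, 5 had 0 counts everywhere and the sum never passed 1.20 CPM. Genes taken as markers of muscle and of fat body or ovary were also present. For muscle, 4 myosin heavy chain genes summed to 3389 to 3632 CPM in antigen p23, 1511 to 3791 CPM in metalloprotease and 1928 to 3499 CPM in GFP control. Tropomyosin was lower, at 481 to 942, 427 to 702 and 422 to 543 CPM in the same groups. The 2 troponins summed to only 18.3 to 49.2, 13.5 to 50.2 and 10.5 to 40.7 CPM. For fat body or ovary, 12 genes were chosen by the Pfam domain PF01347 of vitellogenins alone, and 3 of them had 0 counts. Whether each is a vitellogenin was not checked. These 12 genes summed to 32689 to 60266 CPM, 26460 to 93246 CPM and 23667 to 87853 CPM in the same groups. Of 99 cuticle protein genes, markers of epidermis, 47 had counts, with sums of 657 to 2040 CPM in antigen p23, 328 to 2237 CPM in metalloprotease and 1036 to 2307 CPM in GFP control. Whether the counts of these markers came from other tissues or from the midgut itself was not tested. Nor was the part of other tissues in the legumain values.

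The family's expression rested on 3 legumains. HPB47_025223 took 55.7% of all C13 family counts over the 9 libraries, HPB47_028388 took 36.4% and HPB47_028387 took 6.90%. Together these 3 genes held between 98.2% and 99.9% of the family's counts in each library. The family as a whole took between 0.0932% and 0.324% of a library. The other 2 genes with counts were the GPI-anchor transamidase match HPB47_007897 (0.888% of family counts) and the legumain HPB47_016111 (0.153%). The remaining 5 genes had 0 counts in all 9 libraries, so 5 of 10 genes passed the filter on low counts over the 9 libraries.

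HPB47_025223 lies on scaffold JABSTQ010009596.1 from 208063 to 227878, on the minus strand, in the assembly BIME_Iper_1.3 of the related tick Ixodes persulcatus, to which the reads were aligned. Its gene model spans 19816 bases and has a length of 1530 bases. Lengths in the table are multiples of 3 for 97.9% of genes and are taken as coding lengths without untranslated regions. HPB47_028387 and HPB47_028388 are neighbours on scaffold JABSTQ010009978.1, both on the minus strand, from 22721 to 49181 and from 65219 to 87658, with 16037 bases and no annotated gene between them. Their coding lengths are 1548 and 2403 bases, so the model of HPB47_028388 is the longest of the family. The genes next to the pair had far fewer counts than HPB47_028388, with at most 39 counts in any library for the zinc transporter match HPB47_028386 on one side and at most 2 counts for the glycosyl hydrolase family 18 gene HPB47_028389 on the other.

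HPB47_016111 has a gene model without introns, since its span and its coding length are both 1326 bases (scaffold JABSTQ010004828.1, from 11472 to 12797, plus strand), and it is the only annotated gene of its scaffold. The transamidase match HPB47_007897 lies on scaffold JABSTQ010011130.1 from 293798 to 301840, with a coding length of 951 bases.

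The 5 genes with 0 counts had coding lengths of 555 to 1224 bases (median 879), against 951 to 2403 bases (median 1530) for the 5 genes with counts. HPB47_015356 and HPB47_015358 share scaffold JABSTQ010003929.1 and flank a lipase match, HPB47_015357, that also had 0 counts in every library. Both have a coding length of 879 bases. The other genes with 0 counts were HPB47_014787, HPB47_024429, which is the match to the plant vacuolar-processing enzyme and the shortest at 555 bases, and HPB47_012879, whose model also carries a RING-variant domain, a zinc-binding fold found in ubiquitin ligases. A count of 0 allows a level of up to 3 counts, which is 0.318 CPM in the deepest library and 0.908 CPM in the shallowest. These genes were thus not detectable at this depth, and reads of a near-identical copy could have been assigned elsewhere. The study also names its I. persulcatus reference as a possible source of inaccurate expression values. Reads of I. ricinus that did not align to that reference would leave no counts, which was not tested.

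**Figure D1:**
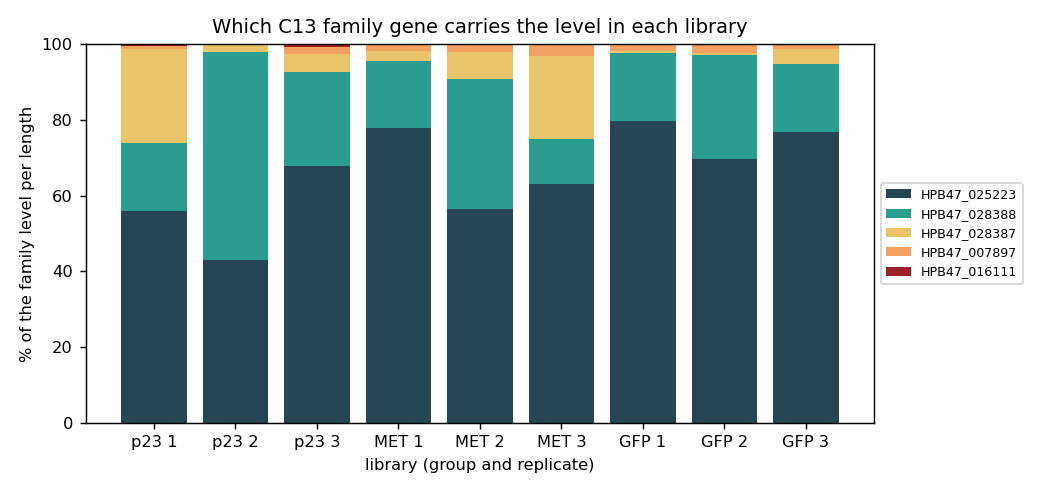
Stacked bars give the share of each detected C13 family gene in the family's level per coding length, in percent, for the 9 libraries (p23, antigen p23; MET, metalloprotease; GFP, GFP control). HPB47_025223 is the largest part in 8 of 9 libraries, and HPB47_028388 is the largest in antigen p23 replicate 2, at 54.8%.

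For the comparison of levels between the family's genes, CPM were taken per kb of coding length. The shares of family counts given above are not corrected for length. How well the reads of each gene aligned to the genome of the related tick was not assessed. HPB47_025223 stood first, with 620 ± 92.7 CPM per kb in antigen p23, 455 ± 79.5 in metalloprotease and 603 ± 146 in GFP control (SD, n = 3 in each group). HPB47_028388 came next with 436 ± 412, 165 ± 135 and 163 ± 10.5 CPM per kb, followed by HPB47_028387 with 103 ± 112, 70.1 ± 56.2 and 14.4 ± 17.6 CPM per kb in the same groups. In GFP control these 3 levels were separated by more than their spread, while in both knockdown groups the levels of the 2 neighbours overlapped, as did those of HPB47_025223 and HPB47_028388 in antigen p23. HPB47_025223 was the highest per length in 8 of 9 libraries, with 42.9% to 79.6% of the family's level. HPB47_028387 exceeded its neighbour HPB47_028388 per length in 2 libraries, antigen p23 replicate 1 (24.6% against 18.0% of the family's level) and metalloprotease replicate 3 (21.9% against 11.9%). HPB47_007897 (10.2 ± 8.00, 15.7 ± 3.67 and 11.8 ± 3.37 CPM per kb) stood above HPB47_016111 (3.54 ± 3.19, 0.623 ± 0.815 and 2.25 ± 1.85 CPM per kb) in all 9 libraries.

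**Figure D2:**
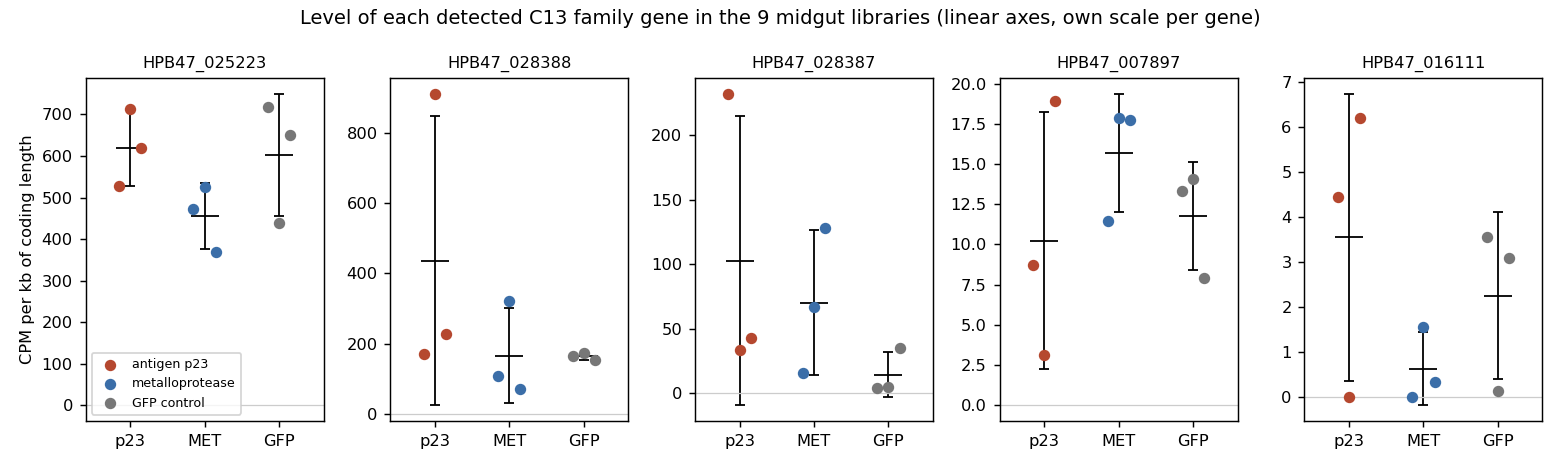
Points are the CPM per kb of coding length of the 5 detected C13 family genes in each library, with the group mean and SD as a dash and a bar (n = 3), on linear axes with a separate scale for each gene. HPB47_025223 stays within a narrow band, while HPB47_028388 is highest in antigen p23 replicate 2 and HPB47_028387 in antigen p23 replicate 1.

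HPB47_025223, the main legumain, had the narrowest range relative to its level of the 5 detected genes over the 9 libraries. It had 807, 1090.4 and 948 CPM in antigen p23 replicates 1 to 3, 722, 803 and 564 CPM in metalloprotease replicates 1 to 3 and 1100.3, 671 and 996 CPM in GFP control replicates 1 to 3. On this scaling (TMM, edgeR's factors for differences in library composition) the antigen p23 values lay inside the GFP control range and above the 3 metalloprotease values, with 807 CPM in antigen p23 replicate 1 and 803 CPM in metalloprotease replicate 2 as the nearest libraries. That order depended on the scaling: by plain library totals, antigen p23 replicate 1 had 642 CPM, below the 835 and 787 CPM of metalloprotease replicates 1 and 2 and below all 3 GFP control libraries, so the antigen p23 and metalloprotease values overlapped. Its highest level was 1.95 times its lowest, against a median ratio of 2.59 over the 2216 genes with a mean of at least 50 CPM.

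HPB47_028388, the longer of the neighbours, was abundant in every library but varied widely under both knockdowns. Antigen p23 replicates 1 to 3 had 408, 2187 and 547 CPM of it, metalloprotease replicates 257, 768 and 166 CPM, and GFP control replicates 394, 416 and 366 CPM. Antigen p23 replicate 2 stood far above the other 8 libraries, and metalloprotease libraries lay on both sides of the GFP control range. The highest level was 13.1 times the lowest, a larger ratio than in 95.8% of the genes with a mean of at least 50 CPM.

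HPB47_028387, the shorter neighbour, was the most variable of the 3 main legumains. It drew 1040, 176 and 209 counts under antigen p23 silencing, 108, 355 and 1840 counts under metalloprotease silencing and 25, 43 and 172 counts in GFP control. Scaled for library size, it had 359, 52.0 and 65.9 CPM in antigen p23, 24.0, 104 and 198 CPM in metalloprotease and 5.87, 7.38 and 53.9 CPM in GFP control. GFP control replicates 1 and 2 were the lowest 2 of the 9 libraries, but replicate 3 stood within the range of the knockdown groups, and 4 of 6 knockdown libraries lay above all 3 GFP control libraries. The highest level was 61.1 times the lowest, a larger ratio than in 99.0% of the genes with a mean of at least 50 CPM.

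The balance between the neighbours differed widely from library to library. The ratio of HPB47_028387 to HPB47_028388 counts was 0.881, 0.0238 and 0.120 in antigen p23 replicates 1 to 3, 0.0932, 0.135 and 1.19 in metalloprotease replicates 1 to 3, and 0.0149, 0.0177 and 0.147 in GFP control replicates 1 to 3, a range of 79.8-fold. The ratio was above 1 in metalloprotease replicate 3 only. Across the 9 libraries the log2 CPM of the pair gave Pearson's r = -0.03 (exact permutation p = 0.943) and Spearman's rho = -0.02 (exact permutation p = 0.982), and r = 0.33 without antigen p23 replicate 2 and metalloprotease replicate 3, the libraries farthest from the median of HPB47_028388. HPB47_025223 gave r = 0.64 (exact permutation p = 0.0592) and rho = 0.37 (p = 0.336) with HPB47_028388, and r = -0.26 (exact permutation p = 0.502) and rho = -0.32 (p = 0.410) with HPB47_028387. Without GFP control replicate 1 and metalloprotease replicate 3 these were r = 0.63 and r = 0.37. The adjusted p over these 3 relations (exact permutation tests, two-sided) was 0.178 at its smallest. The permutations ran over all 9 libraries without regard to group, so differences between groups enter these p values. How reads that fit several genes were assigned is not given in the sources used here, which leaves the split of reads between similar legumains uncertain.

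**Figure D3:**
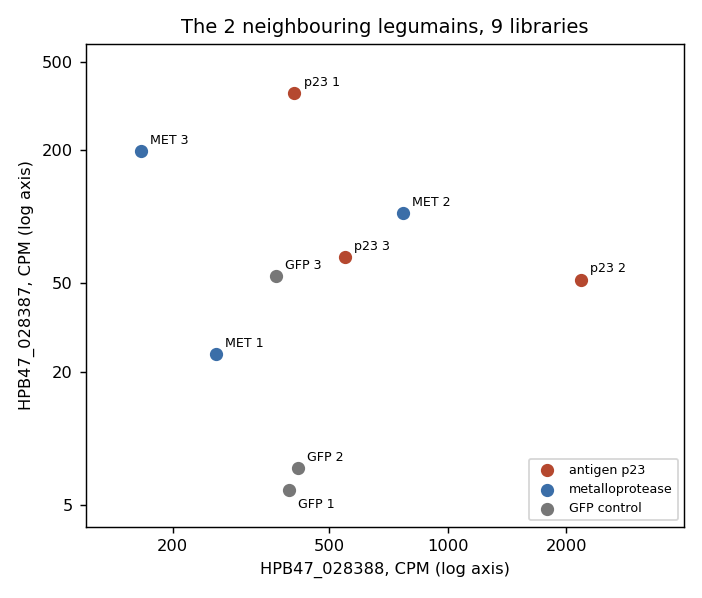
Each point is 1 library, placed by the CPM of HPB47_028388 (x axis) and of its neighbour HPB47_028387 (y axis), both on log axes, and coloured by group. The libraries do not fall along a line: antigen p23 replicate 2 is highest on the x axis at 2187 CPM, and antigen p23 replicate 1 is highest on the y axis at 359 CPM.

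The weakly expressed genes varied with less depth behind them. HPB47_007897, the transamidase match, had 8.29, 2.96 and 18.0 CPM in antigen p23, 10.9, 16.97 and 16.9 CPM in metalloprotease and 12.7, 13.4 and 7.51 CPM in GFP control, and all groups overlapped. The intron-less legumain HPB47_016111 had 17, 0 and 26 counts in antigen p23, 0, 7 and 4 counts in metalloprotease and 20, 1 and 13 counts in GFP control. Every group thus held at least 1 library with 0 or 1 counts of it.

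After antigen p23 silencing, the neighbouring legumains averaged higher than in GFP control and the main legumain had a similar mean, but no member passed the test over all genes. Levels in bulk midgut cannot tell more cells of a type from more RNA per cell. HPB47_028387 averaged 159 ± 173 CPM in antigen p23 and 22.4 ± 27.3 CPM in GFP control (SD, n = 3 each), and its log2 fold change was 2.85 (SE 1.02, 95% interval 0.56 to 5.15, unadjusted p = 0.0203 and adjusted p = 0.964 from edgeR). HPB47_028388 averaged 1047 ± 989 CPM and 392 ± 25.3 CPM, with an estimate of 1.41 on the log2 scale (SE 0.58, 95% interval 0.11 to 2.71, unadjusted p = 0.0363 and adjusted p = 0.964 from edgeR). HPB47_025223 averaged 949 ± 142 CPM and 922 ± 224 CPM, and its log2 fold change of 0.04 had a 95% interval of -0.60 to 0.68.

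Neither neighbour separated the groups completely, as GFP control replicate 3 lay above antigen p23 replicate 2 for HPB47_028387, and antigen p23 replicate 1 lay within the GFP control range for HPB47_028388. Leaving out antigen p23 replicate 1 gave a log2 fold change of 1.41 for HPB47_028387, and leaving out antigen p23 replicate 2 gave 0.28 for HPB47_028388. Without both, the libraries with the fewest detected genes, the values were 1.57 for HPB47_028387 and 0.49 for HPB47_028388. Without GFP control replicate 3 the value for HPB47_028387 was 4.57. With the counts of the pair summed to 1 feature, the log2 fold change was 1.54 (SE 0.47, unadjusted p = 0.00974, adjusted p = 0.964 from edgeR). The study listed both genes as upregulated in these same data, so this p is no separate support for a difference. The summed CPM of 767, 2239 and 613 in antigen p23 did not overlap with 400.1, 423 and 419.6 in GFP control, nor did the groups overlap by plain library totals. With TMM scaling, 5.20% of single genes tested also lay wholly higher in antigen p23. The log2 fold change was -0.21 (SE 0.75) for HPB47_007897 and 0.67 (SE 1.53) for HPB47_016111.

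In this comparison 5 of the 10 genes were tested, 4 with positive and 1 with negative log2 fold changes, with a median of 0.67 against -0.10 over the 6381 genes tested. The count of genes past an adjusted p of 0.05 in edgeR was 0 among the members and 0 among all genes tested, a percentage of 0. By the unadjusted p of edgeR, 2 members stood higher at 0.05 or less and 0 lower, against 1.55% of all genes higher and 1.71% lower, or 3.26% in either direction. The groups overlapped in each of the 5 members, against 5.20% of all genes without overlap on the higher side and 6.24% on the lower. DESeq2 also called 0 members after adjustment, with adjusted p values of 0.258 for HPB47_028387 and 0.738 for HPB47_028388, while it called 0.0495% of all genes. The same 2 members had an unadjusted p of at most 0.05 in DESeq2, against 3.61% of all genes. That share is 438 genes, the same number as the study's list, for which the study states an adjusted p of at most 0.05. After adjustment DESeq2 called 6 genes here. Whether the 438 genes are those of the study's list was not compared.

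Against GFP control, metalloprotease libraries had a higher mean of HPB47_028387 and nearly the same mean of HPB47_028388, and again no member passed. HPB47_028387 averaged 109 ± 87.1 CPM in metalloprotease and 22.4 ± 27.3 CPM in GFP control (SD, n = 3 each). Its log2 fold change was 2.30 (SE 1.03, 95% interval -0.11 to 4.70, unadjusted p = 0.0585 and adjusted p = 1.00 from edgeR). Metalloprotease replicate 1 lay below GFP control replicate 3, so the groups overlapped. The value was 1.52 without metalloprotease replicate 3, the deepest library, and 4.05 without GFP control replicate 3. HPB47_028388 averaged 397 ± 324 CPM and 392 ± 25.3 CPM, and its log2 value of 0.02, with a wide 95% interval of -1.23 to 1.27, was -0.89 without metalloprotease replicate 2. HPB47_025223 averaged 696 ± 122 CPM and 922 ± 224 CPM, which gave -0.41 on the log2 scale (SE 0.29, 95% interval -1.09 to 0.28). The transamidase match HPB47_007897 gave 0.41 (SE 0.38), and HPB47_016111 did not pass the filter on low counts.

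Of the 4 genes tested here, 3 had positive and 1 had negative log2 fold changes, with a median of 0.21 against -0.0048 over 6786 genes. The number past an adjusted p of 0.05 was 0 in edgeR and 0 in DESeq2, for the members as for all genes, a percentage of 0. By the unadjusted p of edgeR, 0 members reached 0.05, against 1.43% of all genes (0.737% higher and 0.693% lower), and the groups overlapped in each of the 4 members, against 2.67% of all genes without overlap on the higher side and 2.95% on the lower. In DESeq2, HPB47_028387 had an unadjusted p = 0.00914 and an adjusted p = 1.00, where 1.42% of all genes had an unadjusted p of at most 0.05. That share is 182 genes, the same number as the study's list for this knockdown, stated at an adjusted p of at most 0.05. The study listed HPB47_028387 as upregulated here too. It did so from these same data, so the unadjusted p is no separate support for a difference. Both comparisons use the same 3 GFP control libraries, so the low HPB47_028387 values of GFP control replicates 1 and 2 enter both.

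The knockdowns were also set against each other. HPB47_025223 had a log2 difference of 0.45 (SE 0.27, 95% interval -0.15 to 1.06, unadjusted p = 0.124 and adjusted p = 0.998 from edgeR). Its groups did not overlap with TMM scaling but did by plain library totals. With TMM scaling, groups did not overlap in this direction in 3.59% of the 6383 genes tested and in the other direction in 5.11%. HPB47_028388 had a log2 difference of 1.41 (SE 0.73, 95% interval -0.24 to 3.05), which was 0.27 without antigen p23 replicate 2 and 2.31 without metalloprotease replicate 2. HPB47_028387 had a log2 difference of 0.57 (SE 0.86, 95% interval -1.37 to 2.51), and -0.89 without antigen p23 replicate 1. HPB47_007897 had a log2 difference of -0.61 (SE 0.72). Among these 4 genes, 0 had an adjusted p of at most 0.05 in edgeR, where the percentage over all genes was 0, and 0 in DESeq2, where it was 0.173%. The unadjusted p of edgeR reached 0.05 in 0 members, against 2.57% of all genes (1.05% higher and 1.52% lower), and that of DESeq2 in 0 members, against 3.43%.

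**Figure D4:**
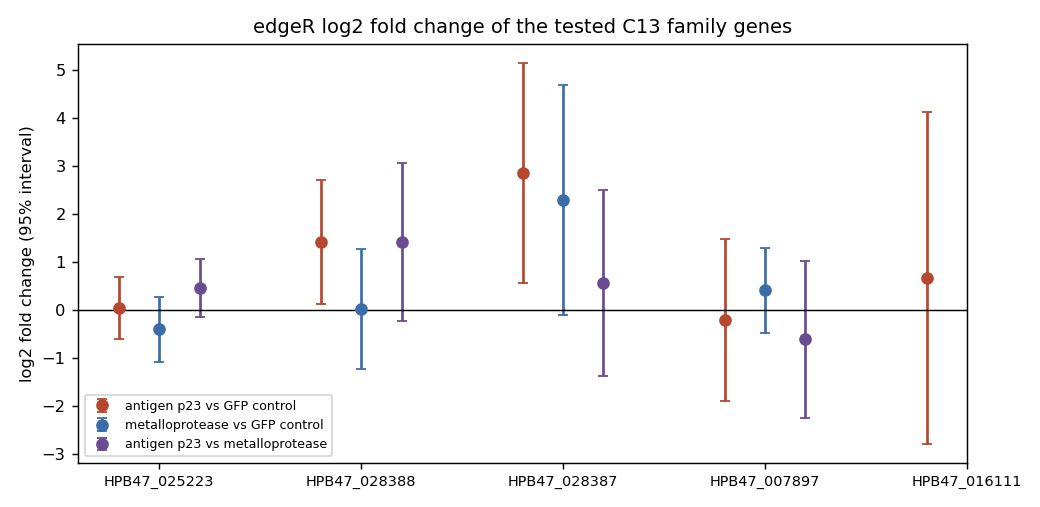
Points are edgeR log2 fold changes of the tested C13 family genes in the 3 comparisons, first named group over second, and bars are 95% intervals. The intervals of HPB47_028387 and HPB47_028388 in antigen p23 against GFP control lie above 0, and each of the other intervals includes 0. HPB47_016111 was tested in that comparison only.

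**Figure D5:**
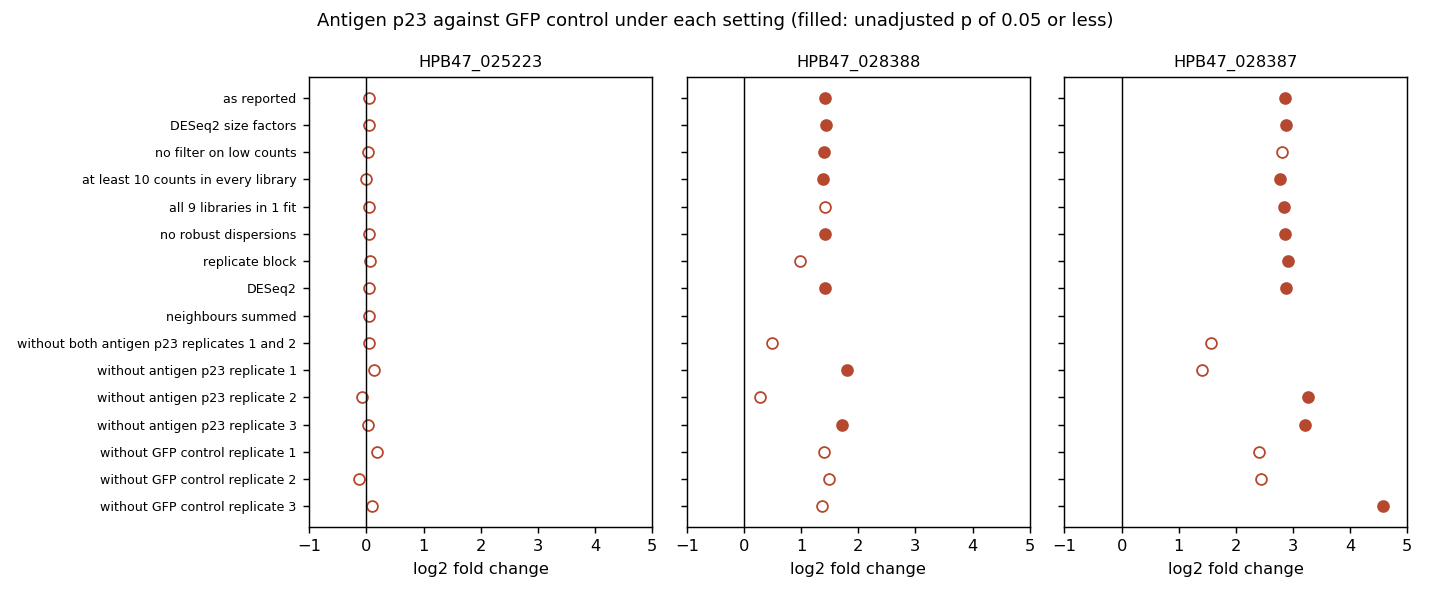
Each row is 1 setting of the analysis and each panel 1 legumain, with the log2 fold change of antigen p23 against GFP control on the x axis and filled points where the unadjusted p reaches 0.05. HPB47_025223 stays between -0.13 and 0.18, HPB47_028388 runs from 0.28 to 1.79 and HPB47_028387 from 1.41 to 4.57. With the pair summed, the neighbours have no point of their own.

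Summed over the family, antigen p23 replicates 1 to 3 had 1588, 3333 and 1588 CPM, metalloprotease replicates 1014, 1694 and 945 CPM, and GFP control replicates 1518, 1108 and 1427 CPM. With TMM scaling the antigen p23 libraries lay above the GFP control libraries, by 4.61% between the nearest, where 5.20% of single genes did so. By plain library totals the groups overlapped, with 1264 CPM in antigen p23 replicate 1, against 1519, 1379 and 1378 CPM in GFP control. The metalloprotease libraries lay on both sides of GFP control. The log2 ratio of group means was 0.68 for antigen p23 over GFP control, 0.49 by plain library totals, 0.23 without antigen p23 replicate 2, and 1.51 when HPB47_025223 was left out of the sum. It was -0.15 for metalloprotease over GFP control and 0.83 for antigen p23 over metalloprotease. These are descriptions without a test.

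Set beside the other peptidases of blood digestion, the C13 family was among the more abundant. Per length it summed to 1172 ± 422 CPM per kb in antigen p23, 707 ± 194 in metalloprotease and 794 ± 145 in GFP control (SD, n = 3 each). The papain family, which holds cathepsins L, B and C, summed to 1790 ± 425, 1627 ± 841 and 1272 ± 464 CPM per kb over 20 genes. The serine carboxypeptidases, which trim amino acids from the carboxyl end of peptides, summed to 400.2 ± 84.3, 238 ± 94.2 and 193 ± 42.9 CPM per kb over 27 genes. Aspartic peptidases, the family of cathepsin D, summed to 121 ± 10.2, 79.2 ± 9.74 and 101 ± 54.3 CPM per kb over 4 genes. The legumains thus lay between the papain family and the carboxypeptidases in each group's mean.

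Genes of these lists gave 0 calls at an adjusted p of 0.05 in each of the 3 comparisons, in edgeR and in DESeq2. Of 20 papain family genes 9 were tested in antigen p23 against GFP control, 7 with positive and 2 with negative log2 fold changes (median 0.35), and 9 in metalloprotease against GFP control, 6 positive and 3 negative (median 0.25). By mean CPM, the most abundant was a cathepsin L match, HPB47_012847. It had 971 ± 285 CPM in antigen p23, 906 ± 700 CPM in metalloprotease and 657 ± 326 CPM in GFP control (SD, n = 3 each). The cruzipain match HPB47_009340, also a papain family cysteine protease, had 450.3 ± 111, 403 ± 148 and 374 ± 129 CPM. HPB47_019066, a match to counting factor associated protein D, was the only papain family gene whose unadjusted p reached 0.05 in any of the comparisons, in antigen p23 against metalloprotease, with a log2 difference of 2.45 (SE 0.91, unadjusted p = 0.0243 and adjusted p = 0.998 from edgeR).

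Of 4 aspartic peptidase genes 3 were tested, with medians of -0.32 in antigen p23 and -0.26 in metalloprotease against GFP control. The cathepsin D match HPB47_007140 had 55.3 ± 9.20, 47.5 ± 12.3 and 71.2 ± 43.6 CPM in antigen p23, metalloprotease and GFP control (SD, n = 3 each). The lysosomal aspartic protease match HPB47_005210 had 81.9 ± 3.56, 40.1 ± 7.86 and 40.8 ± 27.4 CPM, with a log2 difference of 1.04 (SE 0.33, unadjusted p = 0.0127, adjusted p = 0.998 from edgeR) between antigen p23 and metalloprotease.

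Serine carboxypeptidases had 5 of 27 genes tested in antigen p23 against GFP control, 4 positive and 1 negative (median 0.70), and 6 in metalloprotease against GFP control, 4 positive and 2 negative (median 0.84). The lysosomal protective protein match HPB47_005579, a carboxypeptidase also called cathepsin A, had 378 ± 159 CPM in antigen p23, 204 ± 89.5 CPM in metalloprotease and 115 ± 52.2 CPM in GFP control (SD, n = 3 each), with a log2 fold change of 1.71 (SE 0.43, unadjusted p = 0.00322, adjusted p = 0.964 from edgeR) in antigen p23 against GFP control. The CPVL match HPB47_006822, also a carboxypeptidase, had 447 ± 151, 232.6 ± 109 and 267 ± 159.5 CPM, with a log2 difference of 0.94 (SE 0.39, unadjusted p = 0.0401 and adjusted p = 0.998 from edgeR) between antigen p23 and metalloprotease.

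Of the finishing aminopeptidases of the M17 family, each of the 2 genes was tested and the log2 values against GFP control were negative, -0.34 (SE 0.49) for HPB47_025492 and -1.33 (SE 0.80) for HPB47_013070 in antigen p23, and -0.07 (SE 0.37) and -0.47 (SE 0.61) in metalloprotease. Cystatins are inhibitors of papain family proteases, and some also inhibit legumain. Of 8 genes 2 were tested. The salivary cystatin-L2 match HPB47_018502 had 30.2 ± 18.2, 73.7 ± 106 and 27.9 ± 40.7 CPM in antigen p23, metalloprotease and GFP control, and the cystatin-B match HPB47_024164 had 44.7 ± 7.31, 27.4 ± 5.47 and 32.9 ± 13.1 CPM (SD, n = 3 each).

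The genes most like each main legumain across the 9 libraries were found by Pearson's r of log2 CPM over 6923 other genes, as a description without a test. For HPB47_025223 the closest was HPB47_017878, a cathepsin B match of the papain family with a weak level of 0.222 to 18.8 CPM (r = 0.90, Spearman's rho = 0.87), followed by an ABC transporter match, HPB47_003396 (r = 0.89), and a match to the mitochondrial protein SelO, HPB47_001838 (r = 0.87). For HPB47_028388 they were the LEO1 match HPB47_007339 (r = 0.96), a subunit of a complex that travels with RNA polymerase, the myosin-VI match HPB47_010905 (r = 0.95) and the tetraspanin HPB47_026961 (r = 0.90). These 3 were all highest in antigen p23 replicate 2, and when that library and metalloprotease replicate 3 were left out their r was 0.79, 0.85 and 0.61. For HPB47_028387 they were HPB47_023427, a gene with a cytochrome c oxidase subunit VIa domain (r = 0.95), the ribosomal protein L12 match HPB47_019258 (r = 0.94) and the match to 26S proteasome regulatory subunit 8, HPB47_009725 (r = 0.93), and all 3 were highest in antigen p23 replicate 1. The 9 libraries share 3 groups and differ in depth, and the genes were picked for these values.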

How the data were processed

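Midgut RNA of female Ixodes ricinus was sequenced in 3 groups of 3 libraries. After read cleaning, the authors used Bowtie2 2.5.3 with the I. persulcatus assembly BIME_Iper_1.3 as reference, and featureCounts for the counts of each gene. The deposited values are raw counts without normalization. The sources used here give neither the strand setting nor how multi-mapped reads were treated, and sequences of these genes were not used here.

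Members and gene lists were chosen with earlier results of these data known. Tests ran in R 4.3.3 with edgeR 4.0.16 over the whole table (filterByExpr, TMM, robust quasi-likelihood F test, group as the only term, the 6 libraries of each comparison), with Benjamini-Hochberg adjustment over all genes tested and a threshold of 0.05. The script was tested on simulated data. CPM were scaled by TMM over all 9 libraries, and correlations used a prior count of 2. The named genes are the members with counts, the 3 genes of highest r per main legumain, and the 2 tested genes of each list with the highest mean CPM. Other names were added once their values had been seen. The coordinates are those of the table. Floors cover counting error only. Each library is a separate pool of ticks.

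Alternatives were a replicate block, a sum of the neighbouring pair, 1 fit over the 9 libraries, dispersions without the robust option, a minimum of 10 counts in each library or no filter, DESeq2 1.42.0, the DESeq2 size factors within edgeR, plain library totals for summed levels and for the order of libraries, and fits that left out libraries. Libraries with the same replicate number did not deviate together (correlations of -0.47 to 0.10), so the reported tests did not treat them as pairs. Whether they shared a batch cannot be told from 3 libraries a group.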

Additional observations from a re-analysis of the deposited data

How the results depend on the processing

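The count of legumains past an adjusted p of 0.05 was 0 in all 3 comparisons under each alternative. At an unadjusted p of 0.05 or less, the 2 legumains of antigen p23 against GFP control became 1 without the filter on low counts (HPB47_028388), 1 with all 9 libraries in 1 fit (HPB47_028387), 1 with the replicate number as a block (HPB47_028387), 1 with the pair summed and 0 without both antigen p23 replicates 1 and 2, and ran from 0 to 2 when 1 library was left out. Leaving out GFP control replicate 1 or 2 gave 0, and leaving out antigen p23 replicate 1 or 2 or GFP control replicate 3 gave 1. In metalloprotease against GFP control the count of 0 became 1 (HPB47_028387) with at least 10 counts in every library, with the replicate number as a block and with DESeq2, and ran from 0 to 1 when 1 library was left out, with HPB47_028387 without metalloprotease replicate 1 or GFP control replicate 3 and HPB47_028388 without metalloprotease replicate 2. In antigen p23 against metalloprotease it became 1 (HPB47_028388) with the replicate number as a block, and ran from 0 to 1 when 1 library was left out, with HPB47_028388 without antigen p23 replicate 1 or metalloprotease replicate 2 and HPB47_016111, which passed the filter there, without antigen p23 replicate 2. The block took the calls over all genes in that comparison to 1, against 0 without it. The causes of these shifts were not tested.

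Some log2 values of single genes turned direction. HPB47_025223 in antigen p23 against GFP control was -0.0045 with at least 10 counts in every library and -0.13 to 0.18 with 1 library left out. HPB47_028388 in metalloprotease against GFP control was -0.30 with the replicate block and -0.89 to 0.39 with 1 library left out. Without both antigen p23 replicates 1 and 2, HPB47_007897 was 0.69 against GFP control and 0.26 against metalloprotease, and HPB47_028387 was -0.74 against metalloprotease. With 1 library left out, HPB47_028387 in antigen p23 against metalloprotease ran from -0.89 to 1.299, HPB47_007897 in antigen p23 against GFP control from -1.01 to 0.22 and HPB47_016111 in that comparison from -0.023 to 1.25. The log2 ratio of the summed level in antigen p23 over GFP control was 1.51 without HPB47_025223. Scaling by plain library totals, compared for the order of libraries after the data had been seen, ended the separation of groups for HPB47_025223 and for the summed family, and DESeq2 size factors kept both. Where 1 library stood for antigen p23, it was assumed to vary like the other group. Depth limits the weak genes, with 0 to 26 counts per library for HPB47_016111.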

Other observations

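The spread of the neighbouring legumains between pools of 1 group differed between groups. HPB47_028388 had a coefficient of variation of 94.5% in antigen p23, 81.7% in metalloprotease and 6.45% in GFP control (n = 3 each), against medians of 27.7%, 26.6% and 26.5% over the 2216 genes with a mean of at least 50 CPM. The shares of those genes with a smaller coefficient were 98.0%, 95.04% and 4.96%. HPB47_028387 varied in each of the 3 groups, with 109%, 80.2% and 122%, and HPB47_025223 had 14.96%, 17.5% and 24.3%. With 3 pools a group these coefficients are rough, the gene was singled out after its values were seen, and the difference in spread was not tested.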
